A study of Mus musculus with 8 samples.

Results

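The 10 genes described here make, take up, remove and sense extracellular adenosine: the ectonucleotidase genes Entpd1, Entpd2, Entpd3 and Nt5e, the receptor genes Adora1, Adora2a and Adora2b, the nucleoside transporter genes Slc29a1 and Slc29a4, and the adenosine kinase gene Adk. They were taken by symbol from the 24060 gene symbols of each deposited table, and all 10 were found and tested. RNA came from the cortex of 4 young adult mice, male and female, of about postnatal day 80. HA IP libraries hold RNA bound to hemagglutinin-tagged ribosomes, and input libraries hold RNA of the cleared lysate of the same cortex, with 4 libraries in each group, 1 per animal (579, 580, 581 and 595). Every animal was hemizygous for Aldh1l1-creERT2, a tamoxifen-inducible recombinase under astrocyte regulatory sequence, and heterozygous for Ribotag, the Cre-dependent tagged form of the ribosomal protein gene Rpl22. Only cells in which Cre had acted carry the tag; tamoxifen dosing and which animals were male are not in the labels used. No library from animals without Cre was analysed here, so markers of other cells are given. Their RNA in HA IP can be carried over or come from other cells in which Cre had acted. These sources cannot be told apart here.

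Adenosine outside cells arises largely from released ATP. Ectonucleoside triphosphate diphosphohydrolases (NTPDases) split ATP and ADP, and ecto-5'-nucleotidase (CD73, encoded by Nt5e) turns the resulting AMP into adenosine. Adenosine acts on G-protein-coupled receptors, of which the Adora1 product lowers cyclic AMP, while the Adora2a and Adora2b products raise it. Equilibrative transporters carry adenosine across the membrane, and adenosine kinase, which in the adult brain is known mainly as an astrocyte enzyme, phosphorylates it to AMP inside the cell.

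Library totals, worked out from the steps between deposited values, were 33834388 to 53625125 fragments. The values are FPKM, fragments scaled to gene length and library total. The members were covered by 14 to 16304 fragments per library. Aldh1l1 averaged 406 ± 26.2 FPKM in HA IP, against 21.8 ± 0.926 FPKM in input (SD, n = 4 each). Rpl22 averaged 9.37 ± 1.54 FPKM in HA IP, against 10.3 ± 0.989 FPKM in input, and the groups overlapped. All 8 astrocyte markers rose, with a median log2 fold change of 4.41. All 8 neuron, 8 microglia, 8 oligodendrocyte, 4 oligodendrocyte precursor and 6 endothelial markers fell, with medians from -3.89 to -2.06; none of these markers was at 0 in all HA IP libraries. Of 4 mural markers 1 rose and 3 fell, and of 5 meningeal fibroblast markers 1 rose, 2 fell and 2 did not pass. The summed deposited FPKM of the neuron markers was 65.7 to 85.5 in HA IP, against 1862 to 2111 in input. Both libraries of animal 581 stood apart for 36 genes that were at least 2-fold above every other animal, Gfap and Vim among them, against 3, 0 and 3 genes for animals 579, 580 and 595. At least 2-fold below every other animal were 9 genes in animal 581 and 7 in animal 595, against 0 in 579 and 1 in 580. The 7 genes of animal 595 include the Y-linked Ddx3y, Eif2s3y, Kdm5d and Uty. These counts were made after the values were seen, and the part of sex in the results was not tested. Without animal 581 every member kept its direction, and of the members' calls Entpd1 alone was lost (log2 fold change -0.22, limma adjusted p = 0.135). The same held without animal 595 (Entpd1 -0.40, limma adjusted p = 0.0567).

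Fold changes are given on 2 scales. The fitted log2 fold change compares HA IP with input after trimmed mean of M-values (TMM) scaling, which centres the bulk of all genes near 0, with animal as a block (limma, Benjamini-Hochberg adjustment over all 15606 genes tested, threshold 0.05). The deposited scale has no such centring. TMM shifted log2 ratios upwards by 0.83, and without it the median over all genes was -0.75. On the TMM scale all 10 members passed, 6 higher and 4 lower in HA IP, where 85.3% of all tested genes passed, 42.9% higher and 42.5% lower. The members' median was 0.42. Such a share of calls leaves little to read from the count alone, so sizes are given for each gene. On the deposited scale 3 were higher, 6 lower and 1 did not pass, against 24.3% and 62.8% of all genes. Entpd2, Adora2b and Adk were higher and Entpd1, Entpd3, Nt5e and Slc29a4 lower on both scales, while Adora1 and Slc29a1 changed sign between them. Deposited FPKM of HA IP lay above all input values for 3 members and below them for 5, with 22.0% and 59.0% of all tested genes in these positions.

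**Figure D1:**
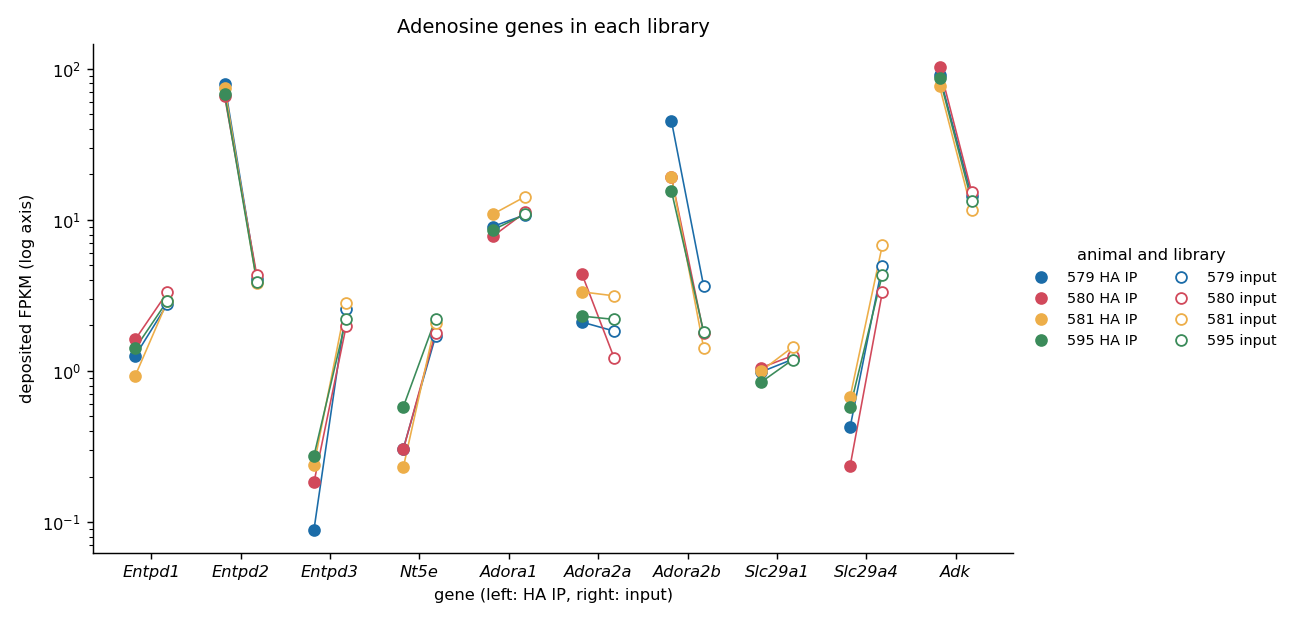
Deposited FPKM (log axis) of the 10 genes in each library; filled points are HA IP, open points input, and lines join the 2 libraries of an animal. Entpd2, Adora2b, Adk and Adora2a lie above their own input in every animal, and Entpd1, Entpd3, Nt5e, Slc29a1, Slc29a4 and Adora1 below it, but the groups of Adora2a and of Adora1 overlap.

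Ordered by mean FPKM in HA IP, the genes ran Adk, Entpd2, Adora2b, Adora1, Adora2a, Entpd1, Slc29a1, Slc29a4, Nt5e and Entpd3. Neighbours in this order whose ranges overlapped were Adk and Entpd2, Entpd1 and Slc29a1, Slc29a4 and Nt5e, and Nt5e and Entpd3. In input the order was Adk, Adora1, Slc29a4, Entpd2, Entpd1, Entpd3, Adora2b, Adora2a, Nt5e and Slc29a1, and the neighbours overlapped except Adora1 and Slc29a4, Entpd2 and Entpd1, and Nt5e and Slc29a1. Levels ran from 0.197 to 89.3 FPKM in HA IP means and from 1.27 to 13.6 FPKM in input means. Such levels rest on the gene lengths used by the authors.

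The regions upstream of Entpd2, Adora2b and Adk are shown because these 3 members rose most. RefSeq (GRCm38.p6) gave 19 start regions for 9 of the 10 members, without Adora2a, and each was read over the 250 bases before the start. Adk has 2 such starts. Capitals mark GC boxes, the letters GGGCGG or their reverse complement CCGCCC, which occurred in 33.0% of 32544 mouse start regions of this length.
Entpd2, chr2:25395624-25395873, plus strand: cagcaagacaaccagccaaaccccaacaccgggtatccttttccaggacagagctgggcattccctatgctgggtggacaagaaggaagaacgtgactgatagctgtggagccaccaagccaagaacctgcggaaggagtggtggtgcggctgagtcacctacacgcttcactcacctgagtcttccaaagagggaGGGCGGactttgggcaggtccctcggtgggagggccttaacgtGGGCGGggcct
Adora2b, chr11:62248734-62248983, plus strand: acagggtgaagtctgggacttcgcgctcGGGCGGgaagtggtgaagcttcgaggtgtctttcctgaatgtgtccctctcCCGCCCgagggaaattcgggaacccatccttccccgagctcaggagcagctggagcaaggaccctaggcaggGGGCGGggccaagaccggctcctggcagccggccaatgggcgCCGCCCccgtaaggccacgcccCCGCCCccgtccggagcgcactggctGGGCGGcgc
Adk, first start, chr14:21052324-21052573, plus strand: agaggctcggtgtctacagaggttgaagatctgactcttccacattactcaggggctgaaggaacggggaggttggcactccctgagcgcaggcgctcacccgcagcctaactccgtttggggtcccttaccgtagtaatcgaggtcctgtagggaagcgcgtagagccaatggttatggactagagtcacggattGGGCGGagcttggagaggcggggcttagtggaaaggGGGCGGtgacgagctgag
Adk, second start, chr14:21075902-21076151, plus strand: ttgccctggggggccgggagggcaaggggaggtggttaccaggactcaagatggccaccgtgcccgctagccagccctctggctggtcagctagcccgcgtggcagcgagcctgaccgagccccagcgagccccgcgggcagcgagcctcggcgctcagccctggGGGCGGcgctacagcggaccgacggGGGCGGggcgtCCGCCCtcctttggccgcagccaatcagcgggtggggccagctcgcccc
The windows held 2 GC boxes for Entpd2, 6 for Adora2b, and 2 and 3 for the first and second start of Adk. Their GC content was 59.2%, 69.6%, 58.8% and 75.2%, against a median of 52.4% over all start regions. Of the members that fell, Nt5e had 4 such boxes and Slc29a4 had 9, while Entpd3 and both windows of Entpd1 had 0. CCAAT, in 33.8% of all windows on either strand, occurred 2 times at the first and 1 time at the second Adk start, 1 time for Adora2b and 0 times for Entpd2. Of the members that fell, Entpd1 held it 2 and 1 times in its windows and Entpd3 1 time, but Nt5e and Slc29a4 0 times. TATAAA (12.3% of all windows), TGACGTCA (1.55%) and CACGTG (6.03%) occurred in none of the 4 printed windows. The nuclear factor I letters TTGGCA (12.3% of all windows) occurred 1 time, at the first start of Adk. The AP-1 letters TGAGTCA (4.46% of all windows) occurred 1 time for Entpd2 and 1 time for Entpd3, which moved in opposite directions. These are letter matches in the reference and not measured sites.

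Of the 4 ectonucleotidase genes, Entpd2 was higher in HA IP and the other 3 were lower. Entpd2 (chromosome 2, 25395874 to 25401323) encodes NTPDase2, which splits ATP quickly and ADP slowly. Its deposited FPKM was 79.4, 65.8, 75.1 and 68.0 in HA IP of animals 579, 580, 581 and 595, against 4.06, 4.31, 3.85 and 3.91 in input. Every HA IP library was at least 15.3 times its own input, and the spread within either group was small, with a coefficient of variation of 8.73% in HA IP and 5.09% in input. The fitted log2 fold change was 4.94 (SE 0.07, limma adjusted p = 9.94e-09), the highest among the members and rank 16 of 15606 genes, and was 4.12 on the deposited scale.

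Entpd3 (chromosome 9, 120539818 to 120568327), which encodes NTPDase3, had 0.0891, 0.183, 0.239 and 0.275 FPKM in HA IP, from 14 to 37 fragments, against 2.59, 1.98, 2.81 and 2.21 FPKM in input. Its mean was 12.2-fold lower in HA IP, and the fitted log2 fold change was -2.43 (SE 0.22, limma adjusted p = 2.32e-05). Both the upward shift by TMM scaling and, in these few fragments, the pseudocount of 0.1 FPKM make the fitted change smaller than the ratio of FPKM. With this pseudocount and no TMM scaling the log2 fold change was -3.11. After TMM scaling with a pseudocount of 0.01 FPKM it was -2.83. Nt5e (chromosome 9, 88327609 to 88372089) had 0.307, 0.303, 0.231 and 0.579 FPKM in HA IP, against 1.69, 1.80, 2.09 and 2.21 FPKM in input. The mean of this AMP-splitting enzyme gene was 5.48-fold lower in HA IP, with a fitted log2 fold change of -1.50 (SE 0.18, limma adjusted p = 1.41e-04), and the groups did not overlap. Animal 595 had the highest Nt5e value in each group.

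Entpd1 (chromosome 19, 40612366 to 40741602) encodes NTPDase1 (CD39), which takes ATP down to AMP and in brain is known from microglia and vessels. It had 1.26, 1.62, 0.930 and 1.41 FPKM in HA IP, against 2.77, 3.32, 2.90 and 2.92 FPKM in input. All HA IP values lay below all input values, and the mean was 2.28-fold lower in HA IP. After TMM scaling the log2 fold change was -0.36 (SE 0.14, limma adjusted p = 0.0386). That call was lost whichever animal was left out (adjusted p = 0.0556 to 0.135), without the animal block (adjusted p = 0.0705) and with no filter (adjusted p = 0.0641), but on the deposited scale it was -1.15 (adjusted p = 1.06e-04). All 8 microglia markers fell after TMM scaling, with a median log2 fold change of -2.92. The strongest fall in this list was -3.46. The weakest was -0.34, close to that of Entpd1. Cx3cr1 (-3.37) lay near the strongest and P2ry12 (-2.97) near the median. Cx3cr1 had 0.713 ± 0.184 FPKM in HA IP, against 14.0 ± 0.751 FPKM in input (SD, n = 4 each). P2ry12 had 0.920 ± 0.240 FPKM in HA IP, against 13.6 ± 2.10 FPKM in input (SD, n = 4 each). The summed microglia list was 25.7 to 33.7 FPKM in HA IP, against 167 to 175 FPKM in input. The endothelial sum was 1.93 to 2.78 FPKM in HA IP, against 14.6 to 22.2 FPKM in input. The part of these cells in the Entpd1 value was not tested. HA IP and input RNA came from the same cortex of each animal. These falls therefore describe the RNA recovered with the tagged ribosomes and not the number of cells.

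The makeup of the ectonucleotidase transcripts is free of the scaling between libraries, and it differed. Entpd2 took 97.5 ± 0.713% of the summed FPKM of the 4 genes in HA IP and 35.5 ± 2.08% in input (SD, n = 4 each). Entpd1 took 1.79 ± 0.510% in HA IP and 26.2 ± 1.99% in input. Entpd3 had 0.271 ± 0.118% in HA IP and 21.1 ± 3.16% in input, and Nt5e had 0.487 ± 0.232% in HA IP and 17.1 ± 2.05% in input. Each of these 4 shares was separated between the groups (exact permutation test over libraries, two-sided, p = 0.0286, the smallest that 4 against 4 allow; adjusted p = 0.0327 over 8 shares). The shares of a library add up to the whole, so the rise of Entpd2 lowers the other 3 together, and these are not 4 separate results. The 8 shares leave out Slc29a4, whose share is fixed by that of Slc29a1, but hold all ectonucleotidase and receptor shares. This test does not use the pairing of libraries by animal. Within animals, where 4 pairs cannot give an exact two-sided p under 0.125, each of these shares had p = 0.125, with the same direction in 4 of 4 animals. Within a library, the ratio of Entpd2 to Nt5e FPKM was 117 to 326 in HA IP, against 1.77 to 2.40 in input.

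**Figure D2:**
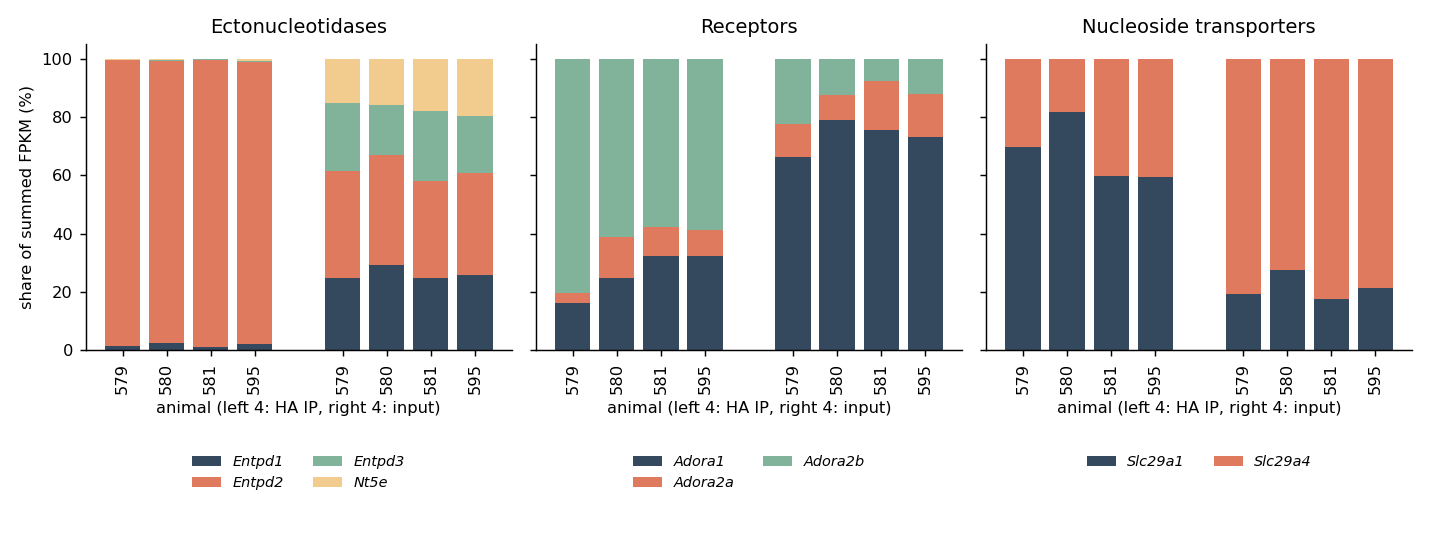
Share of each gene in the summed FPKM of its group (percent), 1 bar per library, HA IP at the left and input at the right of each panel. Entpd2 takes 96.8% to 98.2% in HA IP, against 33.0% to 37.8% in input. Adora2b takes 57.6% to 80.2% in HA IP, against 7.59% to 22.5% in input.

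Among the receptors, Adora2b rose steeply. Adora2b (chromosome 11, 62248984 to 62266452), the low-affinity receptor gene, had 45.1, 19.2, 19.3 and 15.5 FPKM in HA IP, against 3.66, 1.78, 1.42 and 1.82 FPKM in input. Every HA IP library exceeded every input library, and both libraries of animal 579 were at least 2-fold above those of the other animals. The ratio of HA IP to input was nonetheless 12.3 in animal 579 and 8.53 to 13.6 in the others. The fitted log2 fold change was 4.22 (SE 0.12, limma adjusted p = 6.19e-08), rank 114 of all genes, and 4.15 without animal 579.

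Adora1 (chromosome 1, 134199215 to 134235457), the high-affinity receptor gene, was near the input level. It had 9.04, 7.77, 10.9 and 8.57 FPKM in HA IP, against 10.8, 11.2, 14.2 and 10.9 FPKM in input. In every animal HA IP was below its own input, at 0.695 to 0.838 times the input value, although the groups overlapped. Its direction depends on the scaling: the log2 fold change was 0.45 after TMM scaling (SE 0.07, limma adjusted p = 5.83e-04) and -0.37 on the deposited scale (SE 0.07, adjusted p = 0.00156). The neuron marker sum, as deposited, was 25.4-fold lower in HA IP. The part of neurons in the Adora1 values was not tested. The overlapping gene Mybph reached at most 0.834 FPKM in any library.

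Adora2a (chromosome 10, 75316877 to 75334792), the receptor gene known for its high level in striatal projection neurons, varied between animals. It had 2.10, 4.36, 3.34 and 2.31 FPKM in HA IP, against 1.84, 1.22, 3.14 and 2.19 FPKM in input, and the groups overlapped. The HA IP value was 3.59 times the input in animal 580 and 1.05 to 1.15 times in the others. The log2 fold change was 1.32 after TMM scaling (SE 0.29, limma adjusted p = 0.00386) and 0.90 without animal 580 (adjusted p = 8.04e-04). On the deposited scale it was 0.53 and did not pass (adjusted p = 0.126). Of 8 markers of striatal projection neurons, 6 fell, 1 rose and 1 did not pass. Their log2 fold changes ran from -3.83 to 1.29, with a median of -2.68. Their summed FPKM was 110 to 127 in HA IP, against 119 to 276 in input. As deposited, the sum was only 1.44-fold lower in HA IP, so it does not stand for the typical marker. The input of animal 581, which was highest for Adora2a, also had the highest sum. Drd2, which shares the indirect-pathway neurons with Adora2a, had 0.142, 0.0293, 0.0578 and 0.326 FPKM in HA IP, against 1.29, 0.733, 2.21 and 2.01 FPKM in input. The Drd2 values of HA IP rest on 10, 2, 4 and 17 fragments, too few to order the animals. Gpr6, another gene of these neurons, had 0.0602, 0.0207, 0 and 0.0271 FPKM in HA IP, against 1.21, 0.932, 0.670 and 1.06 FPKM in input. The Gpr6 values of HA IP rest on 3, 1, 0 and 1 fragments, again too few for an order. In input, animal 581 was lowest for Gpr6 but highest for Drd2. The part of striatal tissue in the Adora2a values was not tested.

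Within a library the ratio of Adora2b to Adora1 FPKM was 1.78 to 5.0 in HA IP, against 0.10 to 0.339 in input, which is 10.8 to 17.7 times higher in HA IP within the animals. By summed FPKM, Adora2b took 64.5 ± 10.6% of the 3 receptors in HA IP and 13.7 ± 6.27% in input, and Adora1 took 26.4 ± 7.80% in HA IP and 73.5 ± 5.38% in input (SD, n = 4 each). Both shares were separated (exact permutation test, two-sided, p = 0.0286, adjusted p = 0.0327; within animals exact p = 0.125). They are tied to each other, because the 3 receptor shares add up to the whole. The share of Adora2a did not pass, at 9.08 ± 4.19% in HA IP and 12.8 ± 3.62% in input (exact p = 0.229; within animals exact p = 0.25). In animal 580 this share was 13.9% in HA IP and 8.57% in input, opposite in direction to the other animals. There it was 3.74%, 9.94% and 8.73% in HA IP, against 11.3%, 16.7% and 14.7% in input. The difference of HA IP minus input was -3.75 percentage points with animal 580 and -6.78 without it. The size of these shares rests on gene lengths. The FPKM of Adora1 carry a length of 25025 bases, against 1842 for Adora2b and 2601 for Adora2a, so its level per length may be understated. Counted in fragments, Adora1 stayed the largest of the receptors in both groups, with 81.1 ± 6.71% in HA IP and 96.9 ± 0.764% in input. Adora2b then took 16.0 ± 7.15% in HA IP and 1.36 ± 0.722% in input. Adora2a took 2.90 ± 1.27% in HA IP and 1.77 ± 0.492% in input, so the direction of its share depends on the gene lengths. Within the animals, the ratio of Adora2a to Adora1 FPKM was 1.33 to 5.16 times higher in HA IP. The fourth adenosine receptor gene, Adora3, was near the limit of detection with at most 0.0261 FPKM in HA IP, and fell (0.0163 ± 0.00894 FPKM in HA IP, against 0.161 ± 0.0269 FPKM in input, SD, n = 4 each).

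**Figure D3:**
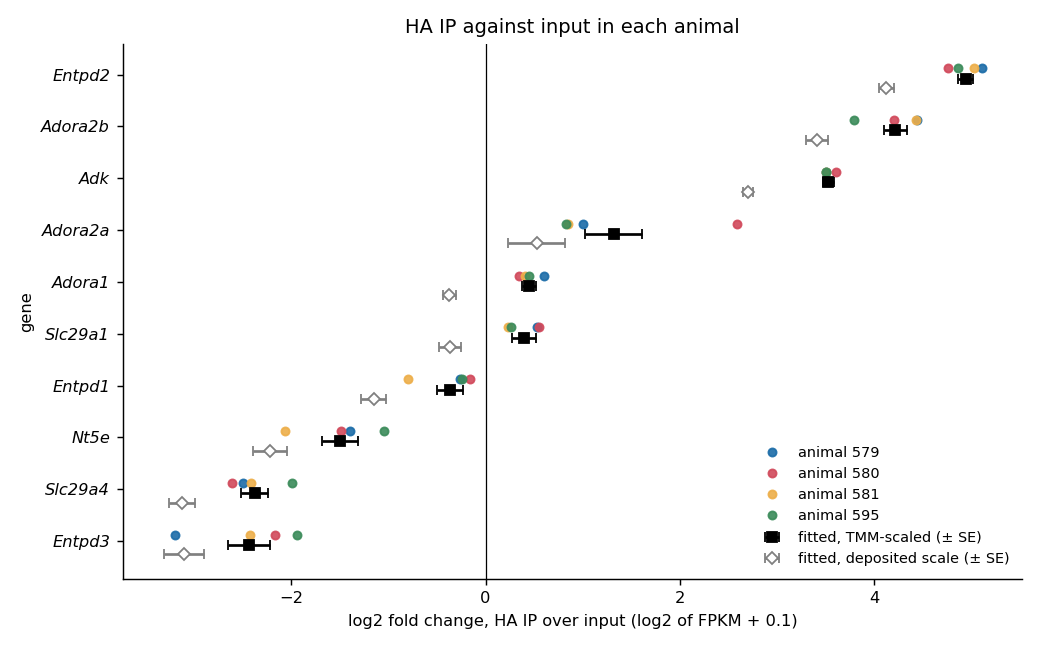
Log2 fold change of HA IP over input for each gene: coloured points are animals after TMM scaling, black squares the fit with its SE, and open diamonds the fit on the deposited scale with its SE. Entpd2, Adora2b and Adk lie far above 0 and Entpd3, Slc29a4 and Nt5e far below it on both scales, whereas Adora1 and Slc29a1 change sign.

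The transporters moved apart. Slc29a4 (chromosome 5, 142692478 to 142722490) encodes the plasma membrane monoamine transporter, which also carries adenosine at low pH. It had 0.426, 0.235, 0.673 and 0.575 FPKM in HA IP, against 4.99, 3.31, 6.79 and 4.34 FPKM in input. No HA IP library reached any input library, and the mean was 10.2-fold lower in HA IP (log2 fold change -2.38, SE 0.14, limma adjusted p = 2.19e-06). Slc29a1 (chromosome 17, 45585200 to 45599618) encodes the equilibrative nucleoside transporter ENT1, the main adenosine carrier of the plasma membrane. It was low, with 0.983, 1.05, 0.995 and 0.840 FPKM in HA IP, against 1.20, 1.27, 1.44 and 1.19 FPKM in input. Its HA IP values lay just below the input values, and its sign turned with the scaling: the log2 fold change was 0.40 after TMM scaling (SE 0.13, limma adjusted p = 0.0198) and -0.37 without it (adjusted p = 0.0205). The TMM call was lost without animal 579 (adjusted p = 0.0857) and without animal 580 (adjusted p = 0.0803). Of the summed FPKM of both transporters, Slc29a1 took 67.6 ± 10.5% in HA IP and 21.5 ± 4.39% in input (SD, n = 4 each; exact permutation p = 0.0286, adjusted p = 0.0327; within animals exact p = 0.125). Its FPKM carry a length of 10022 bases, with 21 transcripts in RefSeq, and how the authors set that length is not given in the sources used. Counted in fragments, Slc29a1 took 87.9 ± 4.8% in HA IP and 49.4 ± 6.26% in input.

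Adk, which clears adenosine by phosphorylation, had the highest mean FPKM of the members in HA IP. Adk (chromosome 14, 21052574 to 21448569) stood at 90.5, 103, 76.7 and 87.5 FPKM in HA IP, against 14.4, 15.3, 11.5 and 13.3 FPKM in input. The groups were far apart, and the 4 animals gave almost the same ratio, between 6.30 and 6.69. The fitted log2 fold change was 3.53 (SE 0.05, limma adjusted p = 9.94e-09), rank 368 of all genes, with per-animal values from 3.50 to 3.60. Within a library, Adk FPKM were 151 to 338 times those of Nt5e in HA IP and 5.52 to 8.54 times in input. The Adk values cover the whole gene, so the 2 starts shown above were not separated.

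Of 54 further genes of adenosine and purine handling, 53 were in the files and 46 had enough fragments to be tested. After TMM scaling 26 of them were higher in HA IP, 19 lower and 1 short of the threshold. Over all tested genes 42.9% were higher and 42.5% lower on this scale. The median log2 fold change of the further genes was 0.56, against 1.15e-05 over all genes. On the deposited scale 17 further genes were higher, 23 lower and 6 did not pass, where 24.3% of all tested genes were higher and 62.8% lower. The lists below are small, so their counts are not read as results beside these shares. Of 8 other ectonucleotidase genes, 4 rose and 4 fell after TMM scaling, and 3 rose and 5 fell on the deposited scale. Alpl, which encodes tissue-nonspecific alkaline phosphatase and can also turn AMP into adenosine, rose by 3.68 on the log2 scale (SE 0.10), with 8.25 ± 0.196 FPKM in HA IP, against 1.02 ± 0.0880 FPKM in input. Cd38, which encodes an ecto-enzyme that splits NAD, rose by 3.05 (SE 0.11), and Entpd7, an intracellular NTPDase gene, changed by -2.47 (SE 0.12). In all 4 animals Alpl was higher in HA IP and Nt5e lower.

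The genes of enzymes that take adenosine onward also divided. Ada, the adenosine deaminase gene, was close to the detection limit with 0.0180 ± 0.0180 FPKM in HA IP, against 0.202 ± 0.0357 FPKM in input (log2 fold change -1.03, SE 0.14). Pnp and Pnp2, which encode enzymes of the next step from inosine to hypoxanthine, rose by 4.09 (SE 0.10) and 3.45 (SE 0.12), but they are close copies whose reads can be shared. Gda, the guanine deaminase gene, averaged 2.29 ± 0.381 FPKM in HA IP, against 62.0 ± 6.83 FPKM in input, and its log2 fold change was -3.90 (SE 0.06). Of 9 deamination and salvage genes, 4 rose, 4 fell and 1 did not pass after TMM scaling, and 3 rose, 5 fell and 1 did not pass on the deposited scale.

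Of 6 intracellular nucleotidase genes, 4 rose and 2 fell on the TMM scale, and 1 rose and 3 fell on the deposited scale. Nt5c rose by 1.60 (SE 0.09), Nt5c1a, a cytosolic AMP nucleotidase gene, changed by -1.24 (SE 0.20), and Nt5c2 had 1.11 (SE 0.21) but 0.30 on the deposited scale, where it did not pass. Of 13 genes of AMP interconversion, 8 rose and 5 fell after TMM scaling, and 7 rose and 5 fell on the deposited scale. The mitochondrial adenylate kinase genes Ak3 and Ak4 rose by 2.25 (SE 0.05) and 2.19 (SE 0.13), and Ak5 changed by -3.80 (SE 0.08). Of 5 methylation cycle genes, 4 rose and 1 fell after TMM scaling, and 1 rose and 2 fell on the deposited scale. Ahcyl1, a relative of S-adenosylhomocysteine hydrolase that binds inositol trisphosphate receptors, rose by 2.75 (SE 0.09), with 420 ± 42.1 FPKM in HA IP, against 110 ± 1.70 FPKM in input. Ahcy itself, the enzyme that releases adenosine from S-adenosylhomocysteine, had 1.0 (SE 0.12) but 0.20 on the deposited scale, where it did not pass, and Mat2b changed by -0.95 (SE 0.07). Of 5 further transport and receptor genes, Slc29a3, a lysosomal nucleoside transporter gene, and Slc29a2, which encodes ENT2, rose by 2.03 (SE 0.09) and 1.62 (SE 0.07). The other 3 fell: Adora3 by 0.86 on the log2 scale, Slc17a9, the vesicular nucleotide transporter gene, by 0.82, and Dpp4 by 1.62. Slc17a9 and Ada had a library at 0 in HA IP.

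**Figure D4:**
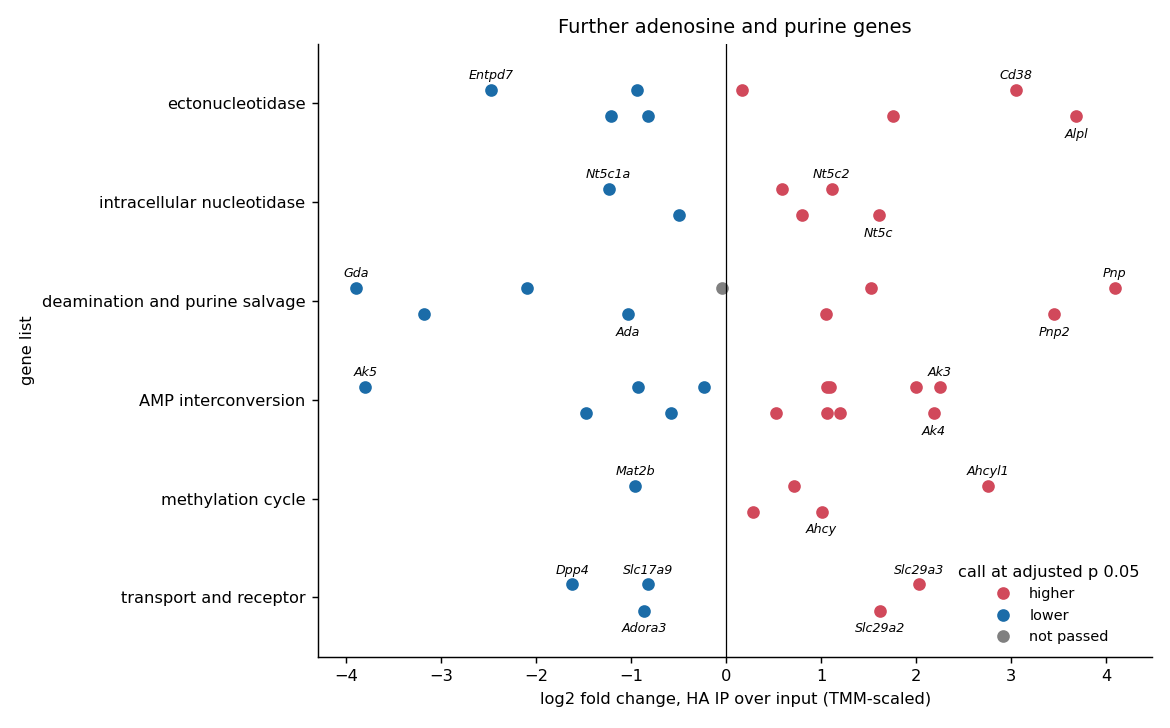
Log2 fold change of HA IP over input after TMM scaling for the 46 tested further genes, 1 point per gene, by list; red points rose, blue points fell and the grey point did not pass. Genes named in the text are labelled; every list holds genes on both sides of 0.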

How the data were processed

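RNA from 4 HA IP and 4 input libraries was sequenced from cortex of 4 mice. Per the labels' protocols, libraries were stranded, paired-end and enriched for mRNA. Build mm10 and the tools bcl2fastq (2.17), STAR and HTSeq come from the submitters' processing notes. Annotation, strand setting and length definition: not given in the sources used here. The deposited values were read as FPKM made by the authors, since a whole length for each gene and a whole total for each library turn every one of the 142235 values above 0 into whole fragments within print precision. The test planned for raw counts was therefore not used. Genes with at least 0.246 CPM of recovered fragments in 4 libraries and 15 fragments in all were tested with limma 3.58.1 (R 4.3.3, intensity trend) on log2(FPKM + 0.1) after TMM scaling (trims 0.3 and 0.05, own code), with animal as a block. Each of 4 numbers stands in the titles of 1 HA IP and 1 input library and was taken as 1 of the 4 mice; deviations from group means correlated by 0.22 to 0.40 within the 4 pairs and by at most 0.11 otherwise. Fold changes of low genes are understated. The fit and the recovery were tested on simulated data. The simulation of the fit changed few genes, as many upwards as downwards, and held no animal effect. It therefore did not test the scaling shift or the block. Alternatives covered scaling, pseudocount, filter, block, fragments with limma's voom, leaving out each animal and, for shares, an exact test within animals. Members and lists were chosen with earlier results of these data known. The text names all members and, per further list, the 3 largest changes past the threshold plus Ada, Adora3, Slc29a2, Slc29a3, Nt5c2, Ahcy and Slc17a9. Gfap, Vim, Mybph, Gm1821 and Lcn2 were added after their values were seen, as were the Y-linked genes.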

Additional observations from a re-analysis of the deposited data

Results flagged for a closer look

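Within the 4 libraries of a group, 1 value stood far from the other 3 (its gap to the nearest, as a share of the group's range, was above Dixon's 95% critical value) in 4 of 62 groups examined for named genes; chance gives about 1 in 20, and 7.82% of tested genes in HA IP and 7.16% in input met the same limit. Adora2b in HA IP was at 45.1 FPKM in animal 579, against 15.5 to 19.3 FPKM in the others, and its share of the receptor FPKM was 80.2% there, against 57.6% to 61.3%. The input of that animal, at 3.66 FPKM, was also the highest. Adora1 in input was at 14.2 FPKM in animal 581, whose HA IP value of 10.9 FPKM was the highest too. Ahcyl1 in HA IP was lowest in animal 581, at 357 FPKM, against 436 to 445 FPKM in the others. Slc17a9 in input was highest in animal 581, at 0.582 FPKM.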

How the results depend on the processing

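Entpd2, Adora2b, Adk, Entpd3, Nt5e and Slc29a4 kept their direction and their call under all 12 alternatives. Their log2 fold changes ran from 4.12 to 5.01, 3.41 to 4.36, 2.70 to 3.54, -3.11 to -1.15, -2.22 to -0.75 and -3.12 to -1.49, with the smallest sizes of the last 3 at a pseudocount of 1 FPKM. Without TMM scaling 3791 genes were called higher and 9794 lower (27.9% of calls higher, in place of 50.2%), 3 members and 17 of the further genes were called higher, Adora1 turned to -0.37 and Slc29a1 to -0.37, and Adora2a did not pass. Without the replicate block, 6530 genes were higher and 6466 lower, and of the members' calls only that of Entpd1 was lost (adjusted p = 0.0705). Leaving out an animal gave 5 or 6 members higher and 3 lower; Entpd1 was lost each time and Slc29a1 without 579 or 580, and the cause was not tested. Shares counted in recovered fragments moved the difference of HA IP minus input (percentage points) to -15.7 for Adora1, 14.6 for Adora2b, -31.4 for Entpd1, 72.9 for Entpd2 and -18.7 for Nt5e, and the difference for Adora2a was 1.13, against -3.75 by FPKM (-6.78 by FPKM without animal 580). Gene length alone differs between fragments and FPKM. The scaling shift itself turns the signs that changed without TMM. An exact test within animals, which keeps the replicate block and was chosen after seeing the data, leaves the differences of the shares as they were (-47.0 for Adora1, 50.8 for Adora2b, -24.4 for Entpd1, 61.9 for Entpd2, -20.8 for Entpd3, -16.7 for Nt5e and 46.1 for Slc29a1) but cannot pass with 4 pairs (exact p = 0.125 for each). Depth limits Entpd3, Nt5e and Slc29a4 in HA IP, Adora3 and Ada.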

Other observations

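Adora2b was 1 of 3 genes for which both libraries of animal 579 were at least 2-fold above those of all other animals (minimum 1 FPKM in its input). The others were Gm1821 and Lcn2, and the cause was not tested.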
